A study of Oryctolagus cuniculus with 12 samples.

Results

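The desmosome genes of the rabbit ear were followed through normal skin, hypertrophic scar and treated scar. The list held 10 components of epidermal desmosomes, namely DSG1, DSG3, DSC1, DSC2, DSC3, PKP1, PKP3, JUP, DSP and CDSN. A component counted as measured when a row of the expression table carried its symbol, and DSG1 and DSC3, which lack a symbol there, were taken from their protein description. This gave 8 members out of the 29587 genes of the table. DSG3 had a row identified only by its description, outside the naming rule, so its values stand beside the members and are not counted with them. PKP3 matched no row and was not analysed here.

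Bulk RNA-seq had been performed on full thickness ear tissue of wild-type female rabbits aged 10 to 12 weeks, with 3 samples in each of 4 groups and harvest on day 43 after wounding. Normal skin (NS) came from untreated ears and hypertrophic scar (HS) from wounded, untreated ears. In the group called drug-loaded MNs each scar received 1 patch of microneedles carrying a prodrug of 5-fluorouracil, and in the group called 5-Fu injection each scar received 0.1 mL of 5-fluorouracil solution (120 μg), in both cases on days 22, 29 and 36. 5-Fluorouracil is an antimetabolite that blocks the synthesis of thymidine nucleotides. Scar treated with drug-free microneedles was not analysed here, so the drug and the insertion of needles cannot be told apart for the drug-loaded MNs. The authors describe 3 rabbits a group, but the labels do not tie each library to 1 rabbit, and p-values measure the spread between these samples.

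Expression was given as FPKM, the fragments on a gene per kilobase of its length and scaled to the library size. Reads on genes, counted back from the FPKM, numbered 10521472 to 14043667 per library. The fewest reads behind a value of a member were 113, for DSC2 in NS replicate 3 (95% exact Poisson interval 93.1 to 135.9, counting error only), and JUP always had at least 2632. Epidermal and dermal markers were present in every group, since 7 of 8 listed basal keratinocyte genes and 6 of 6 fibroblast genes were matched and none of these was at 0 throughout a group. Cartilage genes were also measured, and their summed FPKM ran from 505.4 to 5744 in the libraries without separating the groups. Withwith 5-Fu injection, replicate 2 had summed fibroblast markers of 26670 FPKM against 4970 in the lowest library, so this group was not uniform.

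Desmosomes are spot-like junctions that rivet neighbouring keratinocytes together and give the epidermis its resistance to tearing. Desmogleins and desmocollins are cadherins that span the membrane and bind each other between cells in the presence of calcium. On the inner side, the armadillo proteins plakoglobin and plakophilin hold the cadherin tails and recruit desmoplakin, a plakin that anchors the keratin filaments. As keratinocytes mature the cadherins are exchanged, with desmoglein 3 and desmocollin 3 strongest in the lower layers and desmoglein 1 and desmocollin 1 in the upper ones. In the outermost layers corneodesmosin is added to make corneodesmosomes, which proteases later cut so that dead cells can be shed.

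The 5 listed cadherin genes lay on chromosome 9, in coordinates as the table gives them, with a genome build that is not given in the sources used here. DSC3 (ENSOCUG00000029143, 72256809 to 72304461), DSC2 (ENSOCUG00000012518, 72326062 to 72366648) and DSC1 (ENSOCUG00000012534, 72385980 to 72415470) were on the minus strand. DSG1 (ENSOCUG00000006498, 72568461 to 72606566) and DSG3 (ENSOCUG00000007348, 72717746 to 72737867) followed on the plus strand, so that these 5 genes spanned 481.1 kilobases. The other members were scattered. PKP1 (ENSOCUG00000021242) was on chromosome 16 from 70169506 to 70277901 and JUP (ENSOCUG00000012063) on chromosome 19 from 42674772 to 42688154, both on the minus strand. DSP (ENSOCUG00000013150) was on the plus strand of chromosome 12 from 1265561 to 1312668 and CDSN (ENSOCUG00000006280) on its minus strand from 20128438 to 20132286. DSP shares its strand with the overlapping row of SNRNP48, whose mean was 1.34 FPKM against 42.6 for DSP, and PKP1 contains a pseudogene with a mean of 0.0838 FPKM against 69.0 for PKP1.

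DSG1 encodes desmoglein 1, the main desmoglein of the upper epidermis. It measured 55.5, 26.7 and 76.2 FPKM in NS replicates 1 to 3 and 55.7, 38.8 and 43.04 FPKM in HS. It measured 82.0, 106 and 182 FPKM with drug-loaded MNs and 71.2, 40.9 and 18.4 FPKM with 5-Fu injection. Every drug-loaded MNs library lay above all others, while the lowest value of all belonged to 5-Fu injection replicate 3. DSG3, its counterpart of the lower layers and outside the naming rule, was far lower, at 6.92, 4.99 and 6.42 FPKM in NS and 8.05, 3.74 and 4.29 FPKM in HS. It was 9.29, 7.66 and 23.4 FPKM with drug-loaded MNs and 7.48, 8.14 and 8.92 FPKM with 5-Fu injection. For DSG3 the drug-loaded MNs and HS groups overlapped, and drug-loaded MNs replicate 3 stood well above every other library.

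DSC1 encodes desmocollin 1, found with desmoglein 1 in the upper layers. Its values were 44.2, 18.8 and 49.9 FPKM in NS and 52.2, 30.5 and 38.8 FPKM in HS. They were 66.8, 97.8 and 181 FPKM with drug-loaded MNs and 53.1, 32.3 and 8.53 FPKM with 5-Fu injection. DSC1 followed DSG1 closely from library to library, with the drug-loaded MNs libraries on top and 5-Fu injection replicate 3 at the bottom (Pearson r = 0.98, Spearman rho = 0.98 across the 12 libraries, a description in which the group differences take part).

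DSC2 encodes desmocollin 2, the widely distributed desmocollin of simple and stratified epithelia. It measured 6.77, 6.76 and 3.50 FPKM in NS and 12.2, 5.08 and 7.27 FPKM in HS. It measured 17.2, 7.96 and 35.4 FPKM with drug-loaded MNs and 5.21, 11.2 and 5.36 FPKM with 5-Fu injection. DSC2 was the member with the lowest mean, its drug-loaded MNs libraries differed 4.45-fold among themselves, and they overlapped with those of HS. DSC3, which encodes the desmocollin of the lower layers, was steadier. Its values were 24.4, 14.3 and 24.0 FPKM in NS, 13.9, 11.7 and 12.3 FPKM in HS, 22.6, 26.2 and 39.5 FPKM with drug-loaded MNs and 26.2, 17.4 and 16.8 FPKM with 5-Fu injection. For DSC3 the HS libraries were the lowest of all 12, below each of the other groups without overlap.

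**Figure D1:**
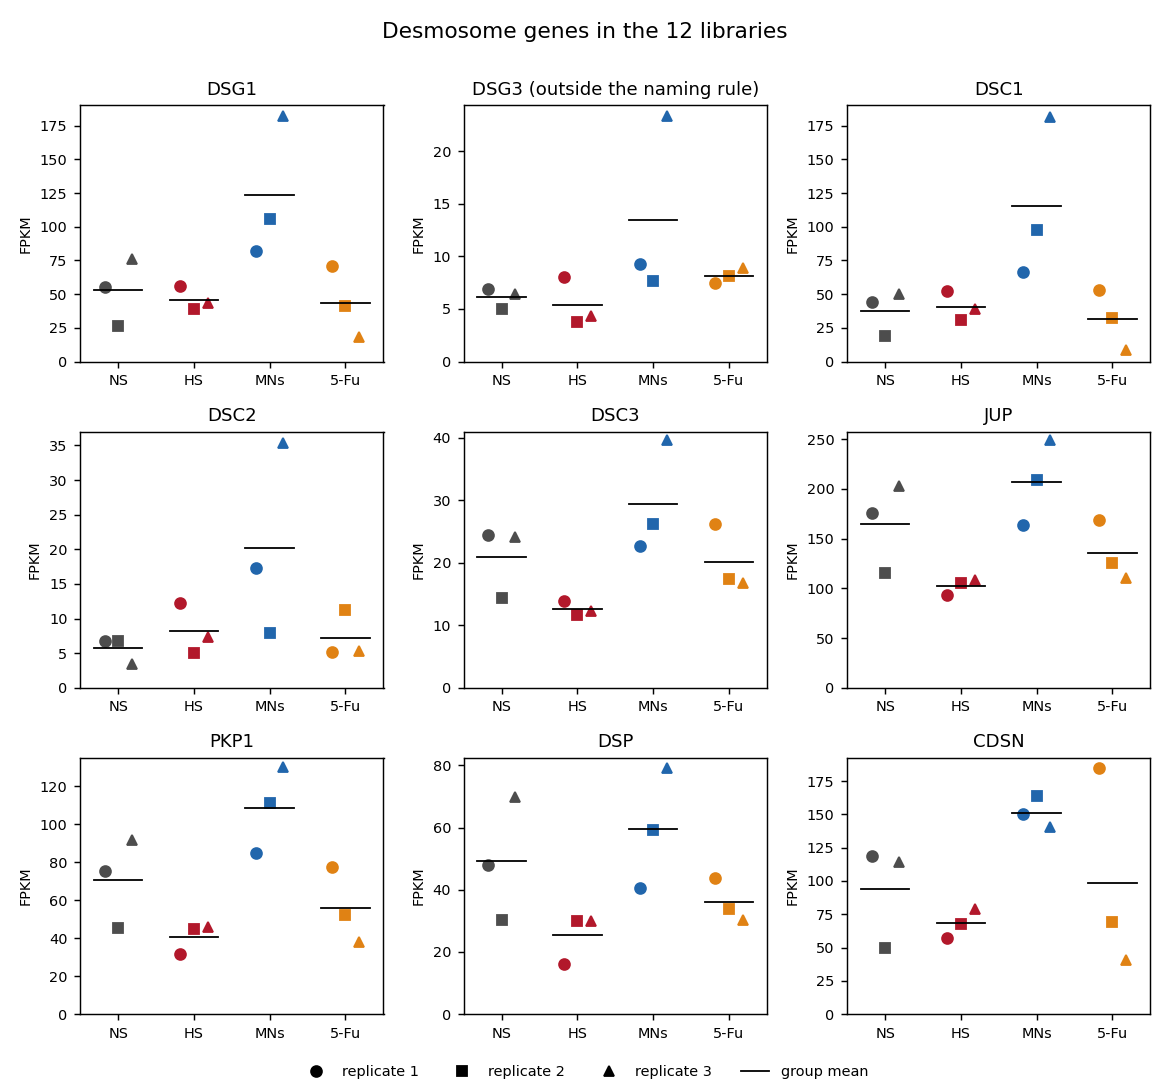
FPKM (y axis, linear from 0, a separate scale for each gene) of the 8 members and of DSG3 in the 12 libraries, grouped on the x axis as NS, HS, drug-loaded MNs (MNs) and 5-Fu injection (5-Fu); symbols mark replicates and bars the mean of 3 libraries. The drug-loaded MNs libraries lie above the HS libraries for each member except DSC2, and the DSC3 values of HS, 11.7 to 13.9, are the lowest of that gene.

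Of the armadillo proteins, JUP encodes plakoglobin, which links the cadherin tails to the plaque in desmosomes and also occurs in adherens junctions. JUP was the member with the highest mean and measured 175, 116 and 203 FPKM in NS and 93.6, 105 and 108 FPKM in HS. It measured 163, 209 and 249.5 FPKM with drug-loaded MNs and 169, 125.5 and 110.7 FPKM with 5-Fu injection. All HS libraries were below all libraries of the other 3 groups, by a narrow margin against 5-Fu injection replicate 3. PKP1 encodes plakophilin 1, which gathers desmosomal proteins into the plaque of the suprabasal layers. Its values were 75.1, 45.6 and 91.9 FPKM in NS, 31.5, 44.7 and 45.8 FPKM in HS, 84.8, 111 and 130 FPKM with drug-loaded MNs and 77.2, 51.9 and 38.2 FPKM with 5-Fu injection. NS and HS missed separating for PKP1 because HS replicate 3 was slightly above NS replicate 2.

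DSP encodes desmoplakin, which no desmosome can do without. It measured 47.9, 30.2 and 69.9 FPKM in NS, 16.2, 29.8 and 30.0 FPKM in HS, 40.7, 59.1 and 79.2 FPKM with drug-loaded MNs and 43.8, 34.0 and 30.2 FPKM with 5-Fu injection. HS was below the other groups without overlap, although HS replicate 3, NS replicate 2 and 5-Fu injection replicate 3 nearly coincided. CDSN encodes corneodesmosin, the secreted glycoprotein of corneodesmosomes. CDSN measured 119, 49.8 and 114 FPKM in NS, 57.4, 68.0 and 79.3 FPKM in HS, 150, 164 and 140 FPKM with drug-loaded MNs and 185, 69.2 and 40.6 FPKM with 5-Fu injection. The drug-loaded MNs libraries agreed within 1.17-fold for CDSN, whereas the 5-Fu injection libraries spread 4.56-fold, from the highest to the lowest value of all 12.

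Groups were compared with limma on log2(FPKM + 1) over the 13287 genes that averaged 1 FPKM or more, which included all 8 members, and a gene was called a DEG at a Benjamini-Hochberg adjusted p under 0.05 with an absolute log2 fold change above 1. In every comparison the count of DEGs among the members was 0 of 8. The counts at an unadjusted p are given with each comparison. The members were chosen with earlier results of these data known. These counts, and those of groups without overlap, are therefore descriptions and give no independent support. Bulk tissue cannot tell fewer keratinocytes from less RNA per keratinocyte.

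The first comparison asked how scar differed from normal skin. In HS the plaque genes and DSC3 had lower means than in NS, while DSG1, DSC1 and DSC2 did not share that direction beyond their spread. DSP showed the largest difference, with a mean of 25.4 ± 7.89 FPKM in HS (SD, n = 3) against 49.3 ± 19.9 in NS, a log2 fold change of -0.90 (SE 0.34, limma adjusted p = 0.136). The log2 fold change was -0.75 for PKP1 (SE 0.30, limma adjusted p = 0.166), -0.65 for DSC3 (SE 0.26, limma adjusted p = 0.152) and -0.65 for JUP (SE 0.23, limma adjusted p = 0.124). These 4 genes were the members with an unadjusted p under 0.05, against 10.2% of all tested genes that reached this with a lower level in HS. The count of 4 rested on single libraries, as it was 0 without NS replicate 1, 0 without NS replicate 3 and 1 without HS replicate 1. For 3 of the 8 members, DSC3, JUP and DSP, every HS library was below every NS library, against 15.3% of all tested genes. At the DEG threshold 5.00% of all tested genes were called and no member was.

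For the other members the interval of the difference between HS and NS was wide on both sides of 0. It ran from -1.16 to 0.98 for DSG1 (log2 fold change -0.09), from -1.13 to 1.49 for DSC1 (0.18), from -0.63 to 1.499 for DSC2 (0.43) and from -1.40 to 0.66 for CDSN (-0.37). The sign for DSG1 turned without NS replicate 1, NS replicate 3 or HS replicate 2, and that for DSC1 turned without NS replicate 2 or HS replicate 1 and when FPKM was rescaled to the total of reads. That rescaling also moved the median of all tested genes in this comparison from -0.01 to -0.33, since the library size inside the FPKM exceeded the reads counted on genes in NS (1.12 to 1.20 times) and fell short of them in HS (0.873 to 0.932 times). Under it PKP1 (-1.10), JUP (-1.01) and DSP (-1.26) passed the DEG threshold, as did 7.98% of all tested genes, and the median of the members was -0.86 against -0.51 as deposited. The median of the members thus lay below the median of all tested genes by similar amounts in both scalings.

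The second comparison asked how scar treated with drug-loaded MNs differed from untreated scar. All 8 members had a higher mean with drug-loaded MNs than in HS, with a ratio of means between 2.03 for JUP and 2.85 for DSC1, but no member was called. The largest log2 fold changes were 1.40 for DSC1 (SE 0.60, limma adjusted p = 0.534), 1.39 for PKP1 (SE 0.30, limma adjusted p = 0.239) and 1.34 for DSG1 (SE 0.49, limma adjusted p = 0.464). DSP had 1.20, CDSN 1.15, DSC3 1.13, DSC2 1.05 and JUP 0.99, and over the 8 members the adjusted p ran from 0.239 to 0.567. The median over the members was 1.18, and the median over all tested genes was -0.02.

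At an unadjusted p under 0.05, 7 of 8 members were higher with drug-loaded MNs than in HS, against 4.78% of all tested genes. The same number, 7 of 8, had groups that did not overlap, against 8.53% of all tested genes. DSC2 missed both. Only 1 of the 13287 tested genes was a DEG in this comparison, which is 0.00753%. The authors, with DESeq2 on counts at the same thresholds, reported more DEGs in it. When the fit held only the drug-loaded MNs and HS libraries, CDSN passed the threshold with the same fold change of 1.15 (limma adjusted p = 0.0486). Limma voom on the counted-back reads called 0 members.

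Drug-loaded MNs replicate 3 had the highest value of all libraries for 7 of 8 members, CDSN being the other. This library also had the highest summed markers of basal (1913 FPKM) and of differentiated keratinocytes (9643 FPKM). The part of these in its member values was not tested. Without this library the log2 fold change against HS fell from 1.05 to 0.55 for DSC2, from 1.40 to 1.01 for DSC1 and from 1.34 to 1.02 for DSG1, and it was 1.20 for CDSN. All 8 members still had a higher level than in HS, with a median of 0.99, and 4 had an unadjusted p under 0.05. DSG3, outside the naming rule, had a log2 fold change of 1.09 (SE 0.36, limma adjusted p = 0.396) with replicate 3 and 0.63 without it.

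The third comparison asked how scar treated by 5-Fu injection differed from untreated scar. The members did not share a direction, since 5 had a higher and 3 a lower mean on the log scale than in HS. DSC3 had the largest positive difference, with a mean of 20.1 ± 5.25 FPKM (SD, n = 3) against 12.6 ± 1.16 in HS, a log2 fold change of 0.61 (SE 0.26, limma adjusted p = 0.163). DSP, PKP1 and JUP had log2 fold changes of 0.52, 0.41 and 0.38. DSC1, DSG1 and DSC2 had -0.65, -0.25 and -0.16, and CDSN had 0.25. DSC3 alone had an unadjusted p under 0.05 among the 8 members, against 11.6% of all tested genes that did so with a higher level. The groups did not overlap for 3 of 8 members, DSC3, JUP and DSP, all higher than in HS, against 13.9% of all tested genes. After quantile normalization 1 of the 8 had groups that did not overlap. At the DEG threshold 2.29% of all tested genes were called.

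The 5-Fu injection libraries disagreed among themselves more than those of any other group for DSG1, DSC1 and CDSN. DSC1 spread 6.23-fold, DSG1 3.87-fold and CDSN 4.56-fold between replicate 1, the highest, and replicate 3, the lowest, whereas DSC3 spread 1.56-fold and DSP 1.45-fold. Without 5-Fu injection replicate 3, DSG1 and DSC1 turned to 0.25 and 0.07 above HS. Without replicate 1, CDSN turned to -0.35 and DSC2 to 0.01, and without HS replicate 1 DSC2 turned to 0.14. Replicate 2, which stood apart in its fibroblast markers, was intermediate for each member except DSC2, where it was the highest of its group. The median over the members was 0.31 with all libraries and 0.39 without replicate 2, but it was 0.080 without replicate 1 and 0.57 without replicate 3.

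A further comparison set the treatments against each other. The upper-layer cadherins DSC1 and DSG1 differed most. The log2 fold change in favour of the drug-loaded MNs group was 2.05 for DSC1 (SE 0.60, limma adjusted p = 0.250), 1.60 for DSG1 (SE 0.49, limma adjusted p = 0.250) and 1.21 for DSC2 (SE 0.48, limma adjusted p = 0.304). It was 0.99 for PKP1, 0.90 for CDSN, 0.68 for DSP, 0.62 for JUP and 0.52 for DSC3. All 8 members pointed the same way, with 5 of 8 at an unadjusted p under 0.05 against 8.15% of all tested genes, and 3 of 8 (DSG1, DSC1 and PKP1) without overlap against 8.64%. The share of all tested genes called DEGs here was 0%, with limma voom as with log2(FPKM + 1). Without 5-Fu injection replicate 3 the difference was 1.33 at most for any member.

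**Figure D2:**
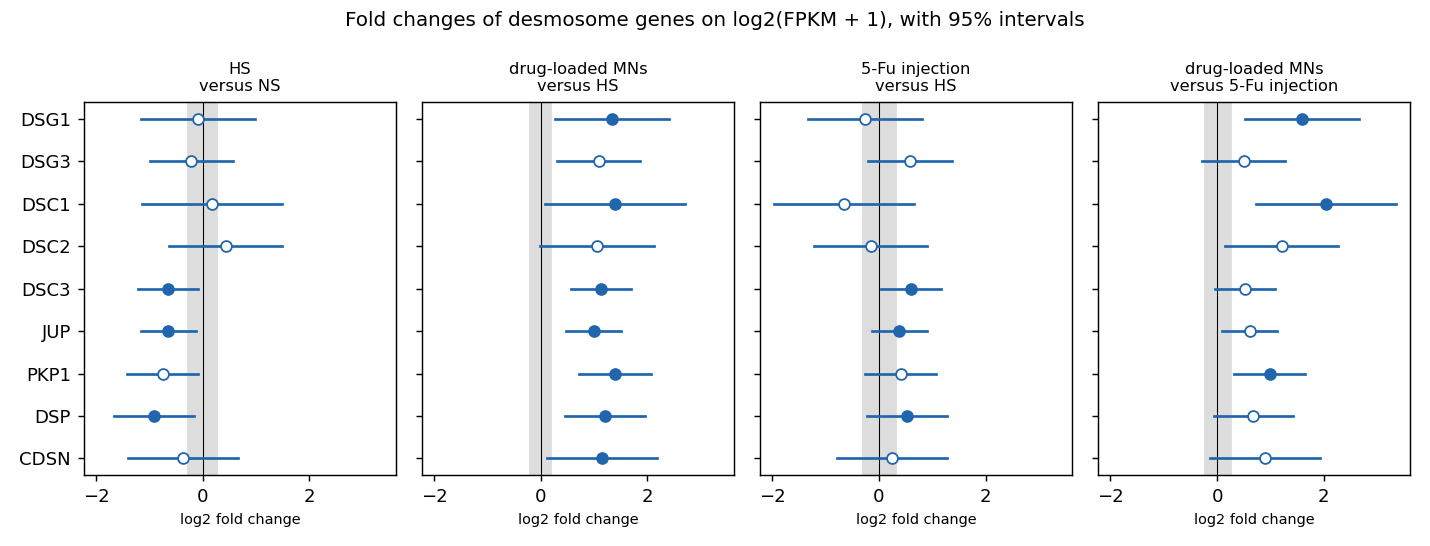
Log2 fold changes on the log2(FPKM + 1) scale (x axis) of each gene (y axis) in 4 comparisons, with 95% intervals from limma; filled points mark genes whose 2 groups of 3 libraries did not overlap and the grey band spans the first to the third quartile of all 13287 tested genes. In drug-loaded MNs versus HS the points of all members lie between 0.99 and 1.40, right of the band.

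The treated scars were also set beside normal skin. With drug-loaded MNs DSC1, DSC2 and DSG1 had log2 fold changes of 1.58, 1.48 and 1.25 over NS (limma adjusted p = 0.288, 0.209 and 0.306), and CDSN, PKP1, DSC3, JUP and DSP had 0.78, 0.65, 0.47, 0.35 and 0.30. The 3 cadherins DSG1, DSC1 and DSC2 were also the members with an unadjusted p under 0.05, against 7.68% of all tested genes. That count was 0 without drug-loaded MNs replicate 3 and 1 without NS replicate 2, where the median over the members was 0.37 against 0.71 with all libraries. These cadherins and CDSN, 4 of 8, did not overlap with NS, against 11.5%, and 1 of 8 did so when FPKM was rescaled to the total of reads. DEGs made up 0.873% of all tested genes. With 5-Fu injection 7 of 8 members had a lower mean log2 level than in NS, from -0.47 for DSC1 to -0.04 for DSC3, with DSC2 at 0.28. For that comparison 0 of 8 members had an unadjusted p under 0.05 (6.98% of all tested genes with a lower level), 0 of 8 had groups that did not overlap (9.16%), and 0.00753% of all tested genes were DEGs. HS is shared by the comparisons of scar with NS and with both treatments, so their fold changes are not independent of each other.

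The make-up of the cadherins was then described as the share of each in the summed FPKM of its family, which compares levels per gene length. DSC1 made up 58.7%, 47.1% and 64.5% of the desmocollins in NS and 66.6%, 64.6% and 66.5% in HS. It made up 62.6%, 74.1% and 70.8% with drug-loaded MNs and 62.9%, 53.1% and 27.8% with 5-Fu injection. DSC3, the lower-layer desmocollin, made up 31.0% to 35.9% in NS and 17.8% to 24.7% in HS. With drug-loaded MNs it made up 15.4% to 21.2%, and with 5-Fu injection 28.5% to 54.7%. The DSC3 share of each HS and drug-loaded MNs library was therefore below that of each NS and 5-Fu injection library. This measure of shares was chosen after the values were seen and carries no test.

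Among desmogleins, DSG1 made up 66.9% to 78.0% in NS, 68.3% to 85.3% in HS, 81.1% to 83.9% with drug-loaded MNs and 58.9% to 84.9% with 5-Fu injection. DSG3 reached its highest share, 28.5%, in 5-Fu injection replicate 3. DSG4, the desmoglein of hair, made up 0.0490% to 9.01% over the 12 libraries and was highest in HS replicates 2 and 3. The DSG4 share moved with the hair follicle list, of which 8 of 10 genes were matched and DSG4 is one, and whose summed FPKM ran from 76.8 to 1432 in HS and from 28.7 to 488.9 in NS. The part of hair follicles in the other cadherin values was not tested.

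**Figure D3:**
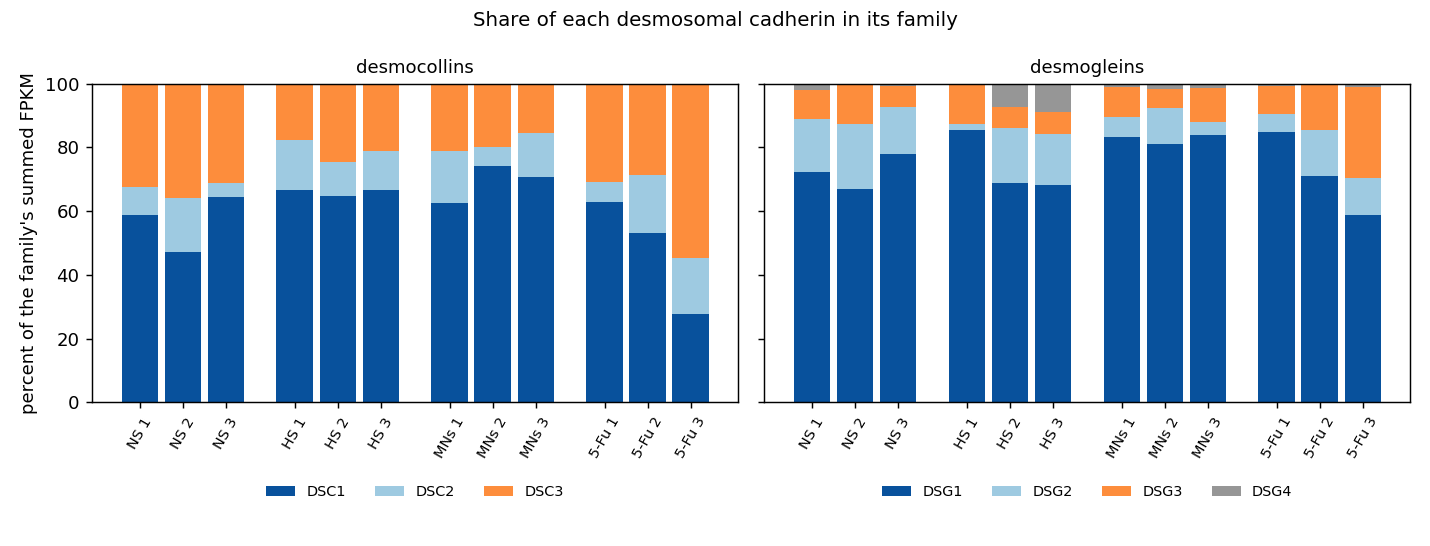
Percent of the summed FPKM of desmocollins (left) and desmogleins (right) held by each gene (y axis) in each of the 12 libraries (x axis, MNs for drug-loaded MNs and 5-Fu for 5-Fu injection). The DSC3 part is 17.8% to 24.7% in HS and 28.5% to 54.7% with 5-Fu injection.

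The upper-layer to lower-layer ratios were also taken on a log scale, where only that of DSC1 to DSC3 separated NS from HS. The log2 ratio of DSC1 to DSC3, on FPKM + 1, was 0.74 ± 0.34 in NS, 1.58 ± 0.26 in HS, 1.85 ± 0.32 with drug-loaded MNs and 0.32 ± 1.06 with 5-Fu injection (SD, n = 3). The NS libraries, from 0.37 to 1.02, did not reach the HS libraries, from 1.32 to 1.83. The 5-Fu injection libraries measured 0.99, 0.86 and -0.90, and replicate 3 was the only library of the 12 with more DSC3 than DSC1. The log2 ratio of DSG1 to DSG3 was 2.81 ± 0.59 in NS, 2.93 ± 0.24 in HS, 3.18 ± 0.39 with drug-loaded MNs and 2.08 ± 1.06 with 5-Fu injection (SD, n = 3). For this ratio neighbouring groups in the order did not differ beyond their spread, and 5-Fu injection replicate 3 was again the lowest at 0.97.

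Since desmosome genes are expressed by keratinocytes, their level was set beside that of basal keratinocyte genes, of which KRT5, KRT15, TP63, ITGA6, ITGB4, COL17A1 and CDH3 were matched and none is a member. Mean log2(FPKM + 1) of the 8 members minus that of the 7 basal genes was -0.81 ± 0.31 in NS, -0.44 ± 0.07 in HS, -0.06 ± 0.12 with drug-loaded MNs and -0.87 ± 0.81 with 5-Fu injection (SD, n = 3). The mean of the basal genes was itself lower in HS, with a mean log2 level of 5.49 to 5.53 against 6.05 to 6.36 in NS and 5.90 to 6.94 with drug-loaded MNs. Between HS and NS the basal genes did not all agree. Of the 7, 6 were lower in HS and CDH3 was higher, with a log2 fold change of 0.61. For 4 of the 7 every HS library was below every NS library, against 15.3% of all tested genes. Relative to the basal genes, the mean of the members was not lower in HS than in NS, as each HS library, from -0.51 to -0.37, was above each NS library, from -1.17 to -0.61. This did not hold for each member, because the mean of the basal genes differed by -0.72 between HS and NS while DSP differed by -0.90 and PKP1 by -0.75. Each drug-loaded MNs library, from -0.19 to 0.05, was above each HS library. This holds relative to basal genes only. In drug-loaded MNs versus HS, 7 differentiated keratinocyte genes had a median log2 fold change of 1.35, which the median of 1.18 of the members did not exceed. In HS versus NS the median of these 7 genes was -0.39, and that of the members was lower, at -0.51. How the members stood against keratinocyte genes in HS versus NS therefore depended on the list. In 5-Fu injection replicate 3 the difference between members and basal genes was -1.73, the lowest of all 12. There KRT5 measured 888 FPKM and KRT15 490.6 FPKM while DSC1 measured 8.53 FPKM. The basal genes did not agree in this library. COL17A1 measured 93.1, ITGB4 63.4, ITGA6 29.4, CDH3 17.4 and TP63 13.6 FPKM. TP63 and ITGA6 were below every NS and every drug-loaded MNs library.

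**Figure D4:**
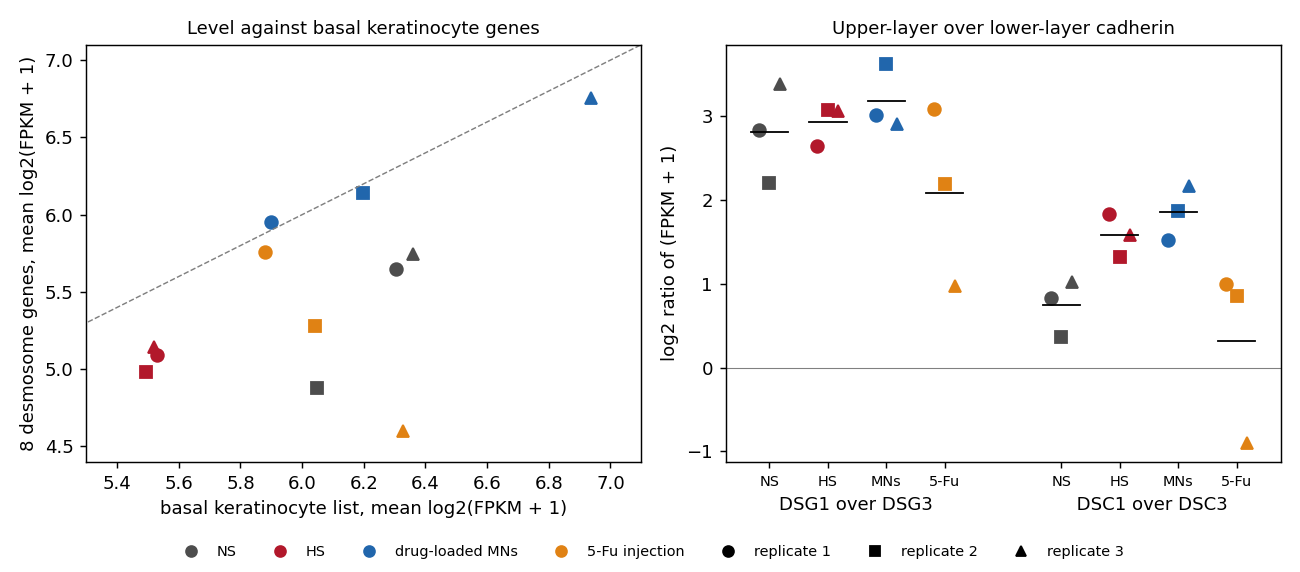
Left, mean log2(FPKM + 1) of the 8 members (y axis) against that of 7 basal keratinocyte genes (x axis) in the 12 libraries, with the dashed line where they are equal; right, log2 ratios of DSG1 to DSG3 and of DSC1 to DSC3 (y axis) by group with bars at the mean of 3 libraries. Colours mark groups and symbols replicates, and 5-Fu injection replicate 3 has the lowest ratio of DSC1 to DSC3, at -0.90.

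Marker lists of 12 cell types of the ear were set beside the same comparisons, and in each comparison the sums of most lists overlapped. Between the drug-loaded MNs group and HS, the summed FPKM of 3 of 12 lists did not overlap. The basal keratinocyte list ran from 457 to 516.2 in HS and from 818.5 to 1913 with drug-loaded MNs, and the differentiated keratinocyte list (7 of 9 genes matched) from 1571 to 2376 and from 4606 to 9643. The fibroblast list ran the other way, from 37370 to 48660 in HS and from 18860 to 27060 with drug-loaded MNs. The sums of the other 9 lists (hair follicle, sebaceous gland, chondrocyte, endothelial, skeletal muscle, adipocyte, melanocyte, macrophage and T cell) overlapped. Between HS and NS the basal keratinocyte and skeletal muscle lists were lower and the fibroblast and macrophage lists higher in HS without overlap. In 5-Fu injection versus HS 5 of 12 lists did not overlap. The basal keratinocyte, differentiated keratinocyte and T cell sums were higher, and the fibroblast and sebaceous gland sums lower. A sum mostly follows its most abundant genes, KRT5 and KRT15 in the basal list and SCD and FADS2 in the sebaceous gland list. Of 7 basal genes, 5 were higher and 2 lower with 5-Fu injection than in HS. The sebaceous genes AWAT1, AWAT2 and MOGAT1 averaged under 1 FPKM and were not tested. The T cell sum was 134.2 FPKM in 5-Fu injection replicate 1, the library with the highest CDSN, and 22.3 and 17.5 FPKM in replicates 2 and 3, against 3.42 to 11.2 FPKM in HS. It was also the list without overlap between the treatments, with 8.47 to 16.4 FPKM for drug-loaded MNs. The part of a changed make-up of the tissue in the values of the members was not tested. No member is in a marker list, but all 8 basal and 6 of 9 differentiated keratinocyte genes are also in a list of related genes below.

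The genes that work with desmosomes were counted in 9 further lists, with 60 genes tested in all. In HS versus NS, 7 of them were called lower and 0 higher. The called genes were KRT2 (log2 fold change -1.95), KRT15 (-1.55) and KRT5 (-1.34) of 9 keratins that desmosomes anchor, the transglutaminase gene TGM3 (-1.59) of 6 cytolinkers and cornified envelope partners, and CGN (-1.37), for the tight junction protein cingulin, of 6 epidermal tight junction genes. COL17A1 (-1.25), for a transmembrane collagen of hemidesmosomes, was called of 5 hemidesmosome genes. Of 8 transcription factors of the epidermis, OVOL1, a zinc finger factor of the differentiating epidermis, was called (-1.17). The limma adjusted p of these 7 genes ran from 0.0149 for OVOL1 to 0.042 for KRT5. With the DEG background of this comparison at 5.00%, 7 of 60 genes were called.

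In drug-loaded MNs versus HS 0 of 60 genes of these lists were called, against 0.00753% of all tested genes. Of all tested genes 46.8% had a higher mean log2 level with drug-loaded MNs, and of the 60 genes 50 did. All 9 keratins did, with a median of 1.28 and 1.78 for KRT10 and 1.84 for KRT1, the pair that marks differentiating layers (limma adjusted p = 0.261 and 0.239). Of 10 proteases and inhibitors that govern the cutting of corneodesmosomes, 9 were higher, with a median of 1.11. Among them KLK7, a kallikrein that cleaves corneodesmosin, had a log2 fold change of 1.15 (limma adjusted p = 0.349), and CTSV, the protease cathepsin V, had -0.25. All 6 cytolinkers and envelope partners were higher, with a median of 0.92, including 0.66 for the plakin gene PPL and 1.20 for TGM3. All 8 transcription factors were higher with a median of 0.94, including 0.82 for KLF4, a factor of barrier formation, and 1.16 for the grainyhead-like factor GRHL1.

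The lists of neighbouring junctions and of other desmosome genes had smaller medians in the same comparison. The median was 0.02 over 9 adherens junction genes, which ran from -0.49 to 0.96, with CTNNB1 (beta-catenin) at -0.12 and CTNNA1 (alpha-catenin) at -0.07. NECTIN4 at 0.96 and CDH1 (E-cadherin) at 0.77, named after their values were seen, were near the desmosome members. The median was 0.57 over 6 tight junction genes, with CLDN1 (claudin 1) at 0.62. It was 0.22 over 5 hemidesmosome genes, although COL17A1 alone had 1.64 (limma adjusted p = 0.188) and ITGB4, the beta 4 integrin, 0.39. Both calcium pump genes tested, ATP2A2 and ATP2C1, were slightly lower, at -0.23 and -0.02. Over 5 other desmosome genes the median was 0.24, so a smaller median was not confined to other junctions. Among them PERP, for a membrane protein of desmosomes, had 1.30 (limma adjusted p = 0.295). PERP measured 413.9 to 445.2 FPKM in HS and 816 to 1507 FPKM with drug-loaded MNs. The plakophilin-related PKP4 had 0.12. These differences between lists were not tested.

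In 5-Fu injection versus HS, 1 of the 60 genes was called, KRT15 at 1.49 (limma adjusted p = 0.0426), against 2.29% of all tested genes. The adherens junction genes were all lower than in HS, 9 of 9, with a median of -0.36, and the keratins had a median of 0.93. Of all tested genes 51.4% were higher than in HS. CTNND1, which encodes p120-catenin and is named after its values were seen, had an adjusted p of 0.0387 by limma with a log2 fold change of -0.76, inside the fold limit. In drug-loaded MNs versus 5-Fu injection 0 of 60 genes were called, against 0% of all tested genes. With drug-loaded MNs 57 of the 60 had a higher mean log2 level, against 50.3% of all tested genes.

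**Figure D5:**
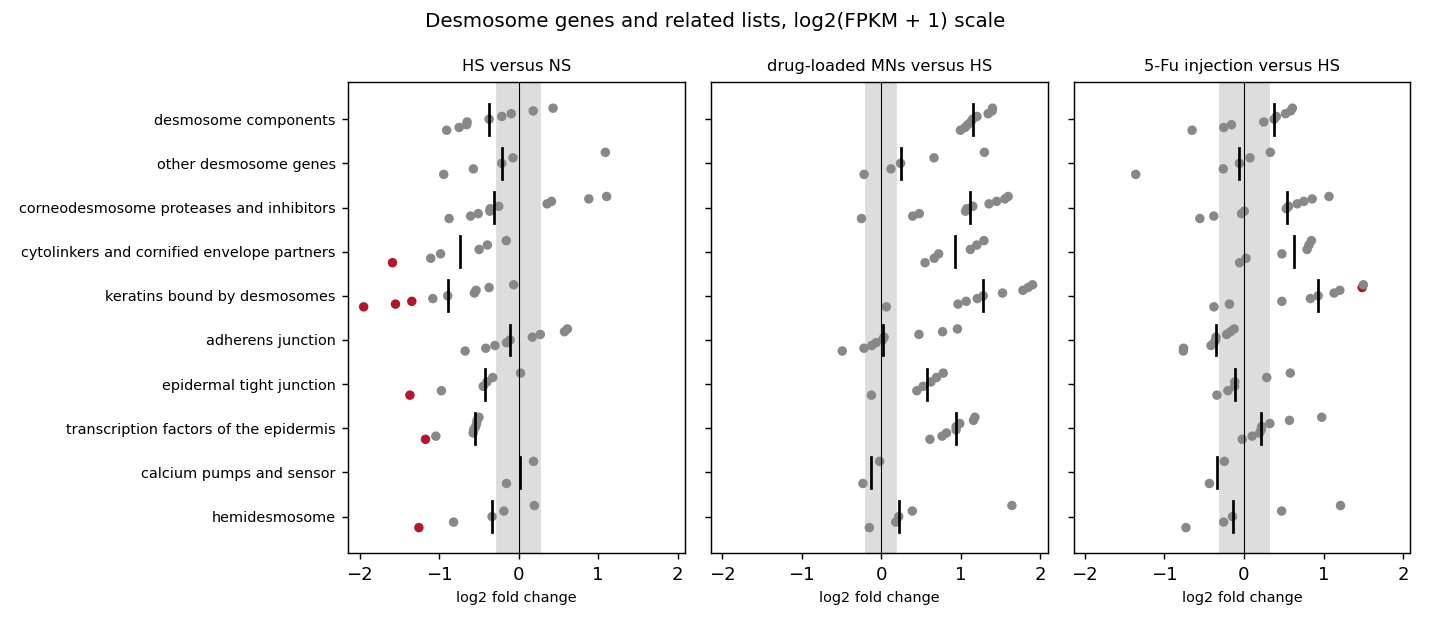
Log2 fold changes on the log2(FPKM + 1) scale (x axis) of each tested gene of the desmosome components (DSG3 included) and 9 lists of related genes (y axis) in 3 comparisons; black bars mark the median of a list, red points DEGs and the grey band the first to the third quartile of all tested genes. In drug-loaded MNs versus HS no point is red, and the median is 1.28 for keratins and 0.02 for adherens junction genes.

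Correlations across the 12 libraries set some members closer to each other. The plaque genes formed 1 close set, with Pearson r = 0.98 between PKP1 and JUP, 0.96 between JUP and DSP and 0.94 between PKP1 and DSP, and DSC3 followed it (r = 0.95 with JUP). DSG1 and DSC1 formed the other, as given above. CDSN was close to both sets (r = 0.87 with PKP1, 0.84 with DSG1 and 0.82 with JUP). DSC2 followed the others least, with r from 0.15 (DSP) to 0.61 (DSC1). These values describe 12 libraries that share group differences and tissue make-up.

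The genes outside the list whose pattern was most like that of the members were sought among 9417 tested genes with a symbol, by the mean Pearson r with the 8 members over the 12 libraries on log2(FPKM + 1). The first 8 were PAQR5 (0.81), POF1B (0.81), TFAP2C (0.81), FAM160A1 (0.80), CCSAP (0.80), KRT10 (0.80), ENDOU (0.80) and PNPLA1 (0.79). POF1B encodes an actin-binding protein of epithelial junctions, TFAP2C the transcription factor AP-2 gamma, and PNPLA1 an enzyme of skin ceramide synthesis. Deviations from the group means gave mean r values of 0.64 (PNPLA1) to 0.76 (KRT10) for these genes, which were selected on the same libraries. Their levels differed widely, as mean FPKM with drug-loaded MNs was 2373 for KRT10, 45.1 for POF1B and 2.96 for PAQR5.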

How the data were processed

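The authors isolated RNA from full thickness ear tissue of 12 samples (4 groups of 3), sequenced it and deposited 1 table of FPKM values for 29587 genes. The aligner, counting tool and genome build are not given in the sources used here. The authors tested DEGs with DESeq2 on counts, which were not used here. At the same thresholds they reported more DEGs than were called here in each comparison they gave. Their DEGs were not compared gene by gene with those called here. The authors do name DSG1, DSC1, PKP1, JUP and CDSN among the most connected genes of a protein network built from DEGs. Their ranked lists for that network also hold DSP and DSC3. No member was called here in any comparison. Samples were grouped by their labels. Multiplied by gene length, 100% of the deposited FPKM values were whole multiples of a step per sample (tolerance 0.05 reads), so reads could be counted back, and the library size inside the FPKM differed from the reads on genes. Reads served for depth, for limma voom and for rescaling only.

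The members and the gene lists were chosen with earlier results of these data known. Groups were compared with limma 3.58.1 in R 4.3.3, in 1 fit of 4 groups on log2(FPKM + 1) with a mean-variance trend, for the 13287 genes that averaged 1 FPKM or more. Adjustment was by Benjamini-Hochberg within each of 6 comparisons. A DEG needed an adjusted p below 0.05 together with a log2 fold change beyond 1 in size. The fold changes understate those of genes with low values. The fit was tested on simulated data first. Counting intervals cover counting error only.

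Genes named are the members, the called genes of each list (at most 4) or, where none was called, its 2 genes with the highest mean FPKM, and the 8 genes most like the members. Of the listed genes, 24 lacked a symbol and were named by their protein description. Alternatives covered the pseudocount (0.1), the filter (none, or an average of 5 FPKM or more), quantile normalization, rescaling to total reads, limma voom, only the groups compared, no trend, adjusted p alone, the replicate number as a block and each library left out. The overlap of groups under other scalings was added after the data were seen. Listed genes with no matched row or a lower average were not tested, and a single gene is not reported here. Promoter motifs were planned but no sequence was used here. Figures were drawn with matplotlib 3.10.9.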

Additional observations from a re-analysis of the deposited data

How the results depend on the processing

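The count of called members was 0 in all 6 comparisons, and it stayed 0 under the alternatives with 2 exceptions. Rescaling to total reads gave 3 in HS versus NS, where it also raised the share of all tested genes called from 5.00% to 7.98% (PKP1 -1.10, JUP -1.01 and DSP -1.26), and restricting the fit to the groups compared gave 1 in drug-loaded MNs versus HS (CDSN 1.15). Leaving out any 1 library gave 0 called members in each comparison. The same-numbered libraries come from different rabbits and their deviations did not pair (correlations from -0.27 to 0.44, with 0 comparisons in which all pairs exceeded 0.1). A fit with the replicate block also called 0 members in each comparison. Directions were less firm for small differences. Of 54 fold changes (8 members and DSG3 in 6 comparisons), 12 turned sign when 1 library was left out, and the cause was not tested. Against NS, HS ranged from -0.51 to 0.23 for DSG1 and from -0.24 to 0.44 for DSC1, which was -0.17 when rescaled to total reads. For 5-Fu injection against HS the ranges were -0.70 to 0.25 for DSG1, -1.19 to 0.067 for DSC1, -0.48 to 0.14 for DSC2 and -0.35 to 0.74 for CDSN. For 5-Fu injection against NS they were -0.79 to 0.15 for DSG1, -1.004 to 0.25 for DSC1, -0.044 to 0.44 for DSC2, -0.28 to 0.079 for DSC3 and -0.72 to 0.36 for CDSN, and for the drug-loaded MNs group against NS -0.0077 to 0.58 for DSP. No direction turned in drug-loaded MNs versus HS or versus 5-Fu injection. The cadherin ratios and the level relative to basal genes moved by less than 1 SD with a pseudocount of 0.1, with quantile normalization and without each library of the group, the alternatives run for them. Over all genes the replicate block lowered the DEGs of 5-Fu injection versus HS from 304 to 99 and of drug-loaded MNs versus NS from 116 to 23, and the fit of only 2 groups gave 37 DEGs against 1 in drug-loaded MNs versus HS and 0 against 304 in 5-Fu injection versus HS. The latter count was 9 without HS replicate 1, 0 without HS replicate 2 or 3, 158 without NS replicate 1, 169 without drug-loaded MNs replicate 2, and 16, 803 and 12 without 5-Fu injection replicates 1, 2 and 3. With 3 libraries a group, intervals of the fold changes were wide, and a miss of the threshold does not show that values did not differ.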
